A study of Mus musculus with 246 samples.

Results

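Axon guidance ligands and receptors were followed through 6 brain regions of adult mice: semaphorins, ephrins, Slits and netrins, with the plexins, neuropilins, Eph receptors, Robo receptors and Unc5 receptors that bind them. Members were taken by gene name and by a summed count of at least 100 over all libraries, and 70 of the 56691 genes in the table met both conditions. Of these, 68 were protein-coding and were tested. The other 2, Plxna4os1 and Plxna4os2, are RNAs antisense to the plexin gene Plxna4 and are given with the plexins.

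RNA was taken from bilateral tissue punches of outbred CD1 male offspring killed as young adults. The 41 mice each gave 1 library from the medial prefrontal cortex (mPFC), the anterior cingulate cortex (ACC), the nucleus accumbens shell (Nacc), the basolateral amygdala (BLA), the dorsomedial thalamus (DMT) and the ventral hippocampus (vHipp). Early life adversity (ELA) was limited bedding and nesting from postnatal day 2 to 9. Dams were injected once, on day 2, with a gel that held SAFit2, an inhibitor of the stress-related co-chaperone FKBP51, or with the empty vehicle gel, so that the pups met the drug through the milk. Ctrl_Veh mice had standard nests and vehicle-treated dams, ELA_Veh mice had adversity and vehicle, and ELA_SAFit2 mice had adversity and SAFit2. No group had SAFit2 without adversity. The study's methods place the taking of tissue after phenotyping in a social box. Its results describe the sequenced mice as a cohort separate from that of the behavioral data. Each condition was split into a set of 7 mice taken without further interaction and a set taken after interaction. The latter had 10 minutes with an unfamiliar mouse (6 Ctrl_Veh, 7 ELA_Veh and 7 ELA_SAFit2). Sequencing day, litter and cage were not in the labels used here, so any that followed a group cannot be told apart from it.

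Guidance cues are signals that steer growing axons toward or away from their targets. Secreted class 3 semaphorins bind neuropilins, which signal through plexins, whereas membrane-bound semaphorins bind plexins directly. Ephrins are anchored to the cell surface and bind Eph receptor tyrosine kinases, with signaling in both cells. Slits are secreted and act through Robo receptors, and netrins act through Dcc and the Unc5 receptors. In the adult brain many of these genes remain in use at synapses, in glia and in vessels. Since each library was a piece of tissue, fewer cells of a type and less RNA per cell cannot be told apart in any of the values below.

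Total counts lay between 20804247 and 43351424 per library (median 28844787). Levels are given as CPM, counts scaled to a common library total, after correction for library composition, and levels of different genes are set side by side only per kilobase of exon. Regional markers mostly fitted the labels: all 5 thalamic markers were higher in the DMT, all 6 striatal markers in the Nacc, all 4 excitatory markers in the mPFC and ACC, 4 of 5 hippocampal markers in the vHipp and 3 of 4 amygdala markers in the BLA. The excitatory markers, listed for the BLA and vHipp too, were higher in only 1 of 4 and 2 of 4 there. Hippocampal markers were also higher in the Nacc (3 of 5), the BLA (2 of 5) and the DMT (2 of 5), and 1 of 5 was lower in the vHipp. The BLA was also higher in all 6 striatal markers. Its summed choroid plexus markers ran from 7.42 to 5524 CPM over libraries (median 2557). The mPFC was higher in all 4 olfactory bulb markers, and 16 libraries (9 of them from the mPFC) held markers of another region at more than 5 times their own region's median. In the Nacc 12 libraries, 6 in each set, resembled another mouse than the labelled mouse over 60 genes that differ between mice, while 0 of the 205 libraries of the other regions did. Results that move without these libraries are given with both values.

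The promoters of 3 members are shown because these genes carry the pattern over regions: Ntn5 had the widest range of all ligands, Epha1 the widest of all receptors, and Unc5a had every vHipp library above and every DMT library below those of all other regions. Each is a RefSeq window of 300 bases on GRCm38.p6 around the gene's start, 250 bases before it and 50 from it on, and capitals mark each GC box (GGGCGG, or CCGCCC on the other strand). The window of Ntn5 (ENSMUSG00000070564.16) is chr7:45683772-45684071 on the + strand, that of Epha1 (ENSMUSG00000029859.7) is chr6:42373219-42373518 on the - strand, and that of Unc5a (ENSMUSG00000025876.16) is chr13:54949161-54949460 on the + strand.
Ntn5: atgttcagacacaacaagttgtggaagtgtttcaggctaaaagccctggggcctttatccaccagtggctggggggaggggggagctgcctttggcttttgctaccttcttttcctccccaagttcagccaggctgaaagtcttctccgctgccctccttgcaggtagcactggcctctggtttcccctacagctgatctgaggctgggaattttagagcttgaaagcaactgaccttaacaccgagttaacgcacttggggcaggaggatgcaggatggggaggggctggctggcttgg
Epha1: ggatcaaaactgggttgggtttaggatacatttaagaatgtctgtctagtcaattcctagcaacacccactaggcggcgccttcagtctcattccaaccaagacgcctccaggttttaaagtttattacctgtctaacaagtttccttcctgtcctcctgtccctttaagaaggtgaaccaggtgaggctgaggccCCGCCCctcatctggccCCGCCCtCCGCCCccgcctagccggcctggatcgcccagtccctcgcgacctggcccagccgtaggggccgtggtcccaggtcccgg
Unc5a: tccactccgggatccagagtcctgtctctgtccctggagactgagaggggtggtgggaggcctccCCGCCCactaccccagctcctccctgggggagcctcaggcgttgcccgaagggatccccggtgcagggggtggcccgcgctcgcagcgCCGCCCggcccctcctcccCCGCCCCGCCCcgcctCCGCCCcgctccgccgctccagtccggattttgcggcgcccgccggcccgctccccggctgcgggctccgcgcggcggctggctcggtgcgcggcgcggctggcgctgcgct
The Ntn5 window held 0 GC boxes and 3 CpG dinucleotides. The Epha1 window held 3 GC boxes and 14 CpG dinucleotides. In the Unc5a window there were 5 GC boxes, 2 of which overlap, and 37 CpG dinucleotides.

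Windows were found for 59 of the 68 tested members, 75 windows in all. A GC box stood in 70.7% of them, against 35.7% of all 32851 windows of the same length. The TATA box letters TATAAA, searched on both strands, stood in 2.67% of member windows and 13.6% of all windows, and the CCAAT box letters CCAAT in 28.0% and 37.4%. Member windows held a median of 19 CpG dinucleotides, and all windows a median of 7. The set of all windows was not limited to the genes tested here, and members were not compared with windows of tested genes alone. Within the members, those called different in a region had a median of 23.5 CpG dinucleotides and the others 15. These are matches of letters and not measured binding.

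Which region used which members was asked first. Each region was compared with the mean of the other 5 in edgeR's quasi-likelihood test over 17381 genes, and a member was called where its adjusted p was under 0.05 and its log2 difference at least 1 in size. With 41 mice a region, all 68 members had an adjusted p under 0.05 for some difference among regions, as did 96.9% of all genes, so the fold decides the call. At this threshold 34 of 68 members were called in at least 1 region, or 50%, against 27.9% of all genes. The median range of log2 level from lowest to highest region was 1.46 over the members and 0.57 over the 13764 genes with a mean of at least 1 CPM.

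**Figure D1:**
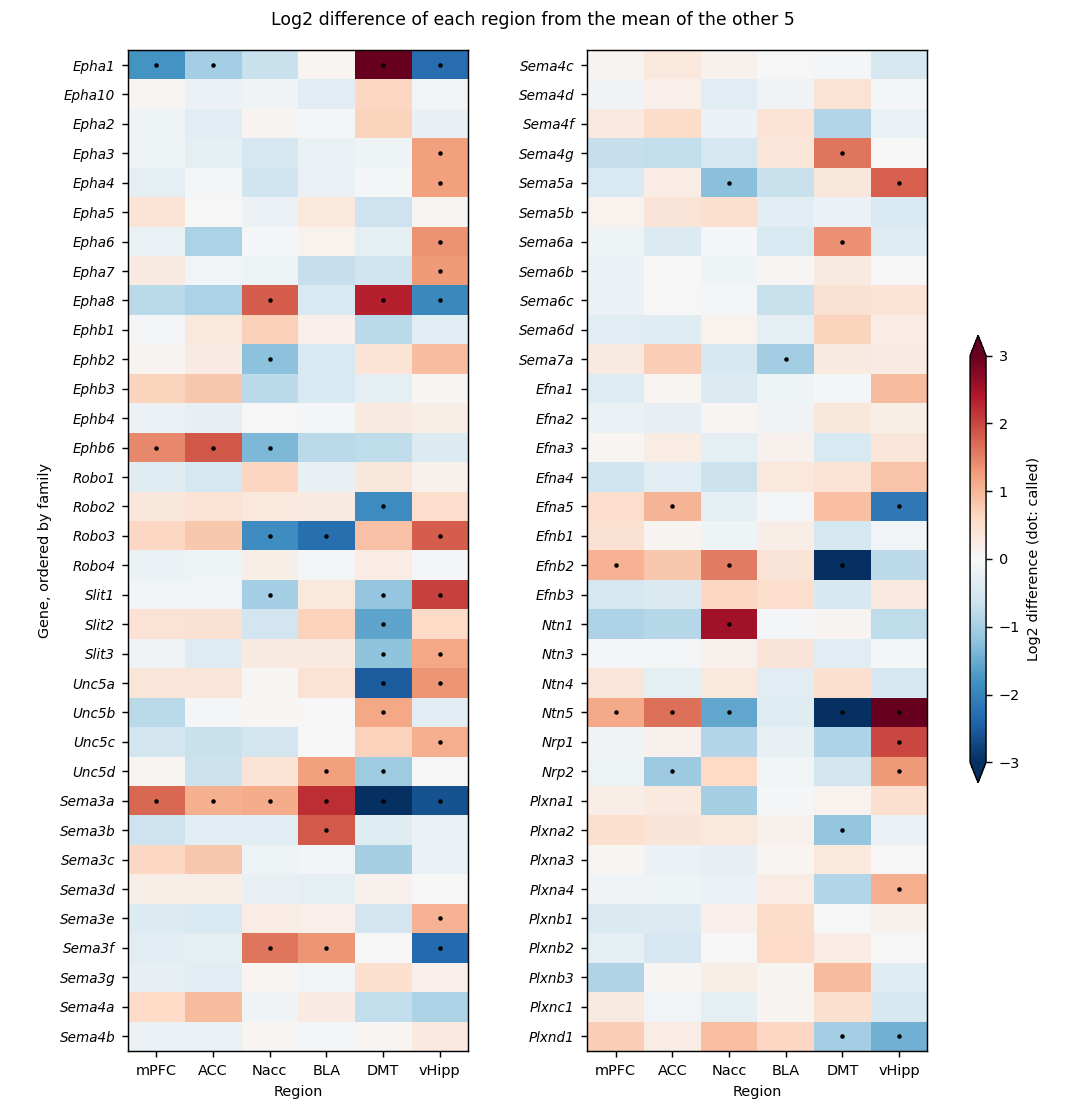
Log2 difference of each of the 68 tested members (rows, ordered by family) in each of the 6 regions (columns) from the mean of the other 5, with colour limited to 3 in either direction and a dot where a member was called. The vHipp column holds the most dots for higher levels (15) and the DMT column the most for lower levels (11).

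The vHipp had the most members called higher. There 15 members were called higher (5.33% of all genes were) and 6 lower (4.92% of genes). The DMT had the most called lower, with 5 higher (8.91% of genes) and 11 lower (8.66% of genes). In the Nacc 5 were higher (4.62% of genes) and 6 lower (4.08%). The BLA had 4 higher (6.71% of genes) and 2 lower (1.56%). Both cortical regions held few calls: 4 higher (3.41% of genes) and 1 lower (3.14%) in the mPFC, and 4 higher (3.53%) and 2 lower (3.57%) in the ACC. As shares of the 68 members, 22.1% were called higher in the vHipp and 16.2% lower in the DMT, over the shares of all genes there. Higher calls in the DMT, 7.35% of members, were near the background. Of the 15 members higher in the vHipp, 10 were receptors, out of 33 receptors tested, and 5 were ligands, out of 35.

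**Figure D2:**
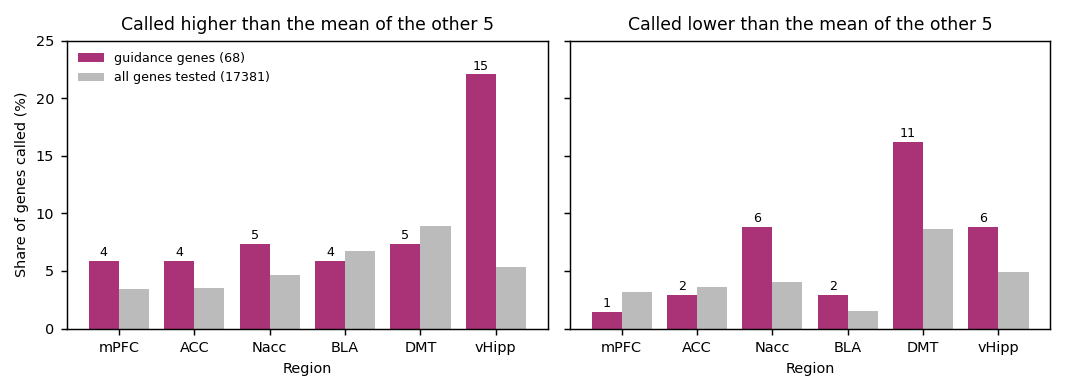
Share of the 68 members and of the 17381 genes tested that were called higher or lower in each region, as bars in percent from 0. Members stand above all genes for higher levels in the vHipp (22.1% and 5.33%) and for lower levels in the DMT (16.2% and 8.66%) and the Nacc (8.82% and 4.08%), and are near them for higher levels in the DMT (7.35% and 8.91%).

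By their highest region, 22 members peaked in the vHipp (32.4% of members, 20.2% of genes), 19 in the DMT (27.9% and 29.5%), and fewer elsewhere: the ACC had 9, the Nacc 8, the BLA 7 and the mPFC 3. Lowest levels fell in the DMT for 20 members (29.4% of members, 30.8% of genes), so this share was near that of all genes. The ACC was lowest for 12 (17.6% and 14.2%), the Nacc for 11 (16.2% and 15.2%) and the vHipp for 10 (14.7% and 19.8%). The mPFC was lowest for 8 (11.8% and 9.2%) and the BLA for 7 (10.3% and 10.8%). In 10 members every library of 1 region was above all libraries of the other 5 regions (4.04% of genes). In 3 members every library of 1 region was below the rest (3.22% of genes). The first group was Epha1, Sema4g and Sema6a in the DMT, Ntn1 in the Nacc, and Epha4, Epha7, Nrp1, Plxna4, Slit1 and Unc5a in the vHipp. The second was Efnb2, Robo2 and Unc5a in the DMT.

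Regions were also compared in 15 pairs by the same call. Over the 1020 tests of members, 229 were called (22.5%), against 14.3% of the tests of all genes. The mPFC and the ACC differed in 0 of 68 members (1.58% of genes). The Nacc and the vHipp differed in 24 members (35.3%, 14.6% of genes), and so did the DMT and the vHipp (35.3%, 21.7% of genes). When the regions of each member were put in order of level, 219 of 340 neighbouring pairs differed at an adjusted p under 0.05 and 121 did not. For 57 members the highest region differed from the second in this test, and for 11 it did not. Within mice, 19 members had the same highest region in all 41 animals and 50 had it in at least 30. Mice were put together here by label, and only in 29 did every library, the Nacc included, resemble the labelled mouse.

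Among the secreted class 3 semaphorins, which signal through neuropilins and plexins, 4 of 7 were called. Sema3a, a repellent for cortical and sensory axons, had the widest range of them. In the BLA it ran from 25.4 to 50.4 CPM (median 43.1) and in the mPFC from 23.6 to 39.5 (31.2). It was lower in the ACC, at 14.5 to 30.6 CPM (21.7), and in the Nacc, at 12 to 41.6 CPM (21.3), and these neighbours did not differ. In the vHipp it fell to 1.14 to 6.18 CPM (2.56) and in the DMT to 0.234 to 4.74 CPM (1.32). The 4 higher regions did not overlap with the vHipp or the DMT in any library. The log2 difference from the other regions was 2.21 (SE 0.053) in the BLA and -3.50 (SE 0.086) in the DMT.

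Sema3f, known for guiding axons that carry neuropilin 2, was high in the Nacc, at 14.8 to 38.0 CPM (median 28.3), and in the BLA, at 15.1 to 33.1 CPM (23.4). The vHipp held 0.914 to 8.93 CPM (median 2.47), below every Nacc and BLA library, and its log2 difference was -2.33 (SE 0.077). The DMT, ACC and mPFC lay between, with medians of 10.6, 9.0 and 8.97 CPM. Sema3e, a ligand of plexin D1, was called higher in the vHipp alone, at a median of 80.2 CPM against medians of 33 to 53.3 in the other regions (log2 difference 1.05, SE 0.043). Sema3c, Sema3d and Sema3g were not called in any region, and the narrowest range of the class was that of Sema3d, 0.40 on the log2 scale.

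Sema3b was called higher in the BLA, and choroid plexus markers moved with it there. Its log2 difference was 1.84 (SE 0.113), with 0.130 to 15.6 CPM in the BLA (median 8.0) and medians of 1.98 to 2.38 CPM elsewhere. All 4 choroid plexus markers were higher in the BLA, and their summed level in the other regions had medians of 3.32 to 23 CPM. In the 30 BLA libraries whose summed choroid plexus markers reached 0.2 of the region's median, Sema3b ran from 3.35 to 15.6 CPM (median 10.4). In the other 11 it ran from 0.130 to 4.14 CPM (median 2.37). Without those 30 libraries the log2 difference was 0.06 and the call was lost. Sema3a (2.35), Sema3f (1.45) and Unc5d (1.27) kept their BLA calls without them, in log2 difference.

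The membrane-bound semaphorins of classes 4 to 7 gave 4 called members of 13. Sema4g was a DMT gene, with 134 to 187 CPM there (median 167) and every library of another region below the lowest of these (log2 difference 1.60, SE 0.028). Sema6a, a ligand of plexins A2 and A4, was likewise highest in the DMT, at 63 to 88.1 CPM (median 74.9) against at most 54.4 CPM elsewhere (1.37, SE 0.031). Both genes were highest in the DMT in all 41 mice. All 4 class 6 members had their highest mean in the DMT, although Sema6c there did not differ from the vHipp and only Sema6a passed the fold. Oligodendrocyte markers were also higher in the DMT, in 5 of 7, with 5215 to 8380 CPM summed against medians of 1620 to 3731 in the other regions; their part in these values was not tested.

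Sema5a, a transmembrane semaphorin with thrombospondin repeats, was highest in the vHipp, at 157 to 412 CPM (median 291). It was lowest in the Nacc, at 37.8 to 88.6 CPM (median 48.2), and these regions did not overlap. The log2 differences were 1.80 (SE 0.042) in the vHipp and -1.26 (SE 0.053) in the Nacc. Sema7a, a semaphorin held in the membrane by a lipid anchor, was called lower in the BLA, at 43 to 76.6 CPM (median 54.8), with a log2 difference of -1.04 (SE 0.044). Without the BLA libraries that held choroid plexus markers this became -0.89 and no longer passed the fold. Its highest level was in the ACC, at a median of 155 CPM.

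Sema4b, Sema6b and Sema5b had the narrowest ranges of their classes. Sema6b, for example, had means of 102 to 133 CPM over the 6 regions, a range of 0.39 on the log2 scale. Sema4a fell from a median of 98.1 CPM in the ACC through 77.2 in the mPFC, 63.9 in the BLA, 52.7 in the Nacc and 36.2 in the DMT to 32.2 in the vHipp, and every step of that order differed, though none of its differences from the mean of the other regions reached the fold.

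Ephrins gave 2 called members of 8. Efnb2, the transmembrane ephrin-B2, had the clearest order. Its levels ran from 72.8 to 155 CPM in the Nacc (median 128), from 83.4 to 114 in the mPFC (93.9), from 66.1 to 98.3 in the ACC (83.4) and from 48.3 to 83.0 in the BLA (65). The vHipp was lower, at 22.8 to 44.9 CPM (33.7), and the DMT lowest, at 6.59 to 14.5 CPM (9.06). No library of the vHipp or the DMT reached those of the 4 higher regions, and all 5 steps in the order differed. Its log2 difference was 1.55 (SE 0.026) in the Nacc, 1.04 (SE 0.027) in the mPFC and -3.0 (SE 0.038) in the DMT.

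Efna5, a lipid-anchored ephrin used in topographic maps, was low in the vHipp. It ran there from 1.90 to 8.77 CPM (median 3.66), while the Nacc had a median of 11.3 CPM, the BLA 13.5, the mPFC 18.8, the DMT 23.5 and the ACC 24.9. The vHipp difference was -2.15 (SE 0.050) on the log2 scale, and the ACC was called higher at 1.03 (SE 0.038). The ACC and the DMT did not differ. Per kilobase of exon, Efnb3 was the most abundant member, with a mean over regions of 36.9 CPM per kilobase, and Efna4 the least, with 0.186. Efna1, Efna2, Efna3, Efna4, Efnb1 and Efnb3 were called in no region.

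All 3 Slits, the secreted ligands of Robo receptors, were called lower in the DMT. Slit1 rose far above the rest in the vHipp, at 289 to 452 CPM (median 365), when no library elsewhere exceeded 220 CPM. Elsewhere the BLA had a median of 136 CPM, the mPFC 112, the ACC 109, the Nacc 59.7 and the DMT 56.5. The log2 difference was 2.04 (SE 0.036) in the vHipp, -1.16 (SE 0.046) in the DMT and -1.02 (SE 0.045) in the Nacc, where it became -0.96 without the Nacc libraries that resembled another mouse. Slit3 was higher in the vHipp as well, with 82.8 to 122 CPM (mean 106 ± 8.50, SD, n = 41) and a log2 difference of 1.16 (SE 0.033). Slit2 was called only lower in the DMT, where its median was 18.4 CPM against 31.7 to 72.8 in the other regions (-1.59, SE 0.069).

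Netrins were split between regions. Ntn5, a netrin-like secreted protein, ran in the vHipp from 2.80 to 20.8 CPM (median 9.73). It ran from 1.30 to 4.24 CPM in the ACC (median 2.34), from 0.556 to 3.3 in the mPFC (1.72) and from 0.256 to 1.59 in the BLA (0.593). In the Nacc it lay between 0 and 2.02 CPM (0.249), and in the DMT between 0 and 0.225 CPM (0.033). All neighbours in this order differed, and the vHipp was highest in all 41 mice. The ratio of the highest to the lowest regional mean, 230, rests on a DMT level near 0 and is imprecise.

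Ntn1, the netrin that attracts commissural axons through Dcc, was an accumbens gene. Nacc libraries held 38.0 to 83.0 CPM (median 62.6), and the highest library of any other region held 22.0. The regional medians elsewhere were 15.1 CPM in the DMT, 13.9 in the BLA, 9.26 in the vHipp, 8.88 in the ACC and 8.17 in the mPFC. The log2 difference of 2.51 (SE 0.033) had the smallest p of all genes tested in the Nacc (adjusted p = 4.76e-153), and it was 2.52 without the libraries that resembled another mouse. Ntn3 and Ntn4 were called in no region.

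**Figure D3:**
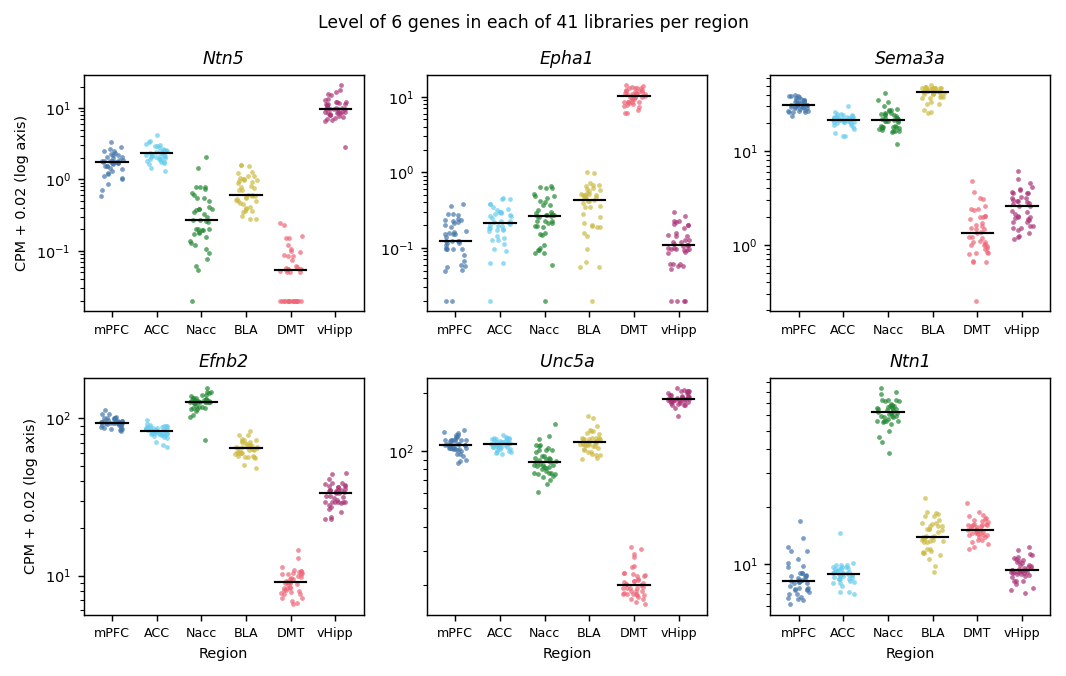
Level of Ntn5, Epha1, Sema3a, Efnb2, Unc5a and Ntn1 in every library of each region, as CPM plus 0.02 on a log axis, with a line at each median. Epha1 stands apart in the DMT (6.01 to 14.2 CPM), Ntn1 in the Nacc (38.0 to 83.0 CPM), and Efnb2 and Unc5a are lowest in the DMT.

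Plexins, the signaling receptors of semaphorins, gave 3 called members of 9. Plxna4, which pairs with neuropilins and binds class 6 semaphorins directly, was highest in the vHipp, at 294 to 408 CPM (median 350), with no library of another region above 258. Its log2 difference was 1.09 (SE 0.020). Plxna2 was called lower in the DMT, at 79 to 144 CPM (mean 102 ± 10.6, SD, n = 41), against medians of 180 to 264 elsewhere (-1.15, SE 0.025). Plxnd1, the receptor of Sema3e, was lower in the vHipp (-1.45, SE 0.056) and in the DMT (-1.02, SE 0.054), with medians of 24.4 and 30.8 CPM, while the other 4 regions had medians of 61.1 to 91.5. No plexin was called higher outside the vHipp, although Plxnb1 had its highest level in the BLA in all 41 mice, at a median of 175 CPM.

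The antisense RNAs at the Plxna4 locus were at the limit of detection. Plxna4os1 had 290 counts over all libraries and Plxna4os2 had 113, with at most 8 and 4 in any library. By region, Plxna4os2 had 46 counts in the ACC, 34 in the mPFC, 13 in the BLA, 10 in the DMT, 7 in the Nacc and 3 in the vHipp, where Plxna4 itself was highest. The kit marked strand, but the strand setting of the counting was not given in the sources used here, so reads of the antisense RNAs and of Plxna4 may not be fully told apart.

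Both neuropilins, the binding receptors of class 3 semaphorins, were higher in the vHipp. Nrp1 ran there from 75.4 to 131 CPM (median 92.9), above every library elsewhere, where the medians were 32.2 CPM in the ACC, 26.3 in the mPFC, 21.2 in the BLA, 17.9 in the Nacc and 16.9 in the DMT (log2 difference 2.01, SE 0.047). Nrp2 reached up to 192 CPM in the vHipp (mean 149 ± 15.1, SD, n = 41; 1.27, SE 0.052) and overlapped with the Nacc, where 1 library reached 210 CPM. It was called lower in the ACC, at a median of 37.7 CPM (-1.10, SE 0.062). In the vHipp, where both receptors were high, their ligands Sema3a and Sema3f were called lower. Of the other class 3 semaphorins, Sema3e was called higher there (1.05), while Sema3b (-0.2), Sema3c (-0.2), Sema3d (0.0) and Sema3g (0.16) were not called.

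EphA receptors bind mainly the lipid-anchored ephrins, and 6 of 9 were called. Epha3, Epha4, Epha6 and Epha7 were all higher in the vHipp, by 1.22, 1.23, 1.34 and 1.28 on the log2 scale (SE 0.042, 0.034, 0.054 and 0.026). Each had its highest level there in all 41 mice. Epha4, which also binds ephrin-B ligands, ran from 422 to 637 CPM in the vHipp (median 535), with no library elsewhere above 326. Epha7 ran from 170 to 253 CPM (median 197), with none elsewhere above 134. Efna5, which was low in the vHipp, is a ligand of these receptors. The other lipid-anchored ephrins were above the mean of the other regions there, none by the fold. Their log2 differences were 0.94 (Efna1), 0.17 (Efna2), 0.36 (Efna3) and 0.86 (Efna4).

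Epha1, an EphA receptor best known from epithelia, was a DMT gene. It ran there from 6.01 to 14.2 CPM (median 10.2). The highest library of any other region, in the BLA, held 0.974 CPM, and the medians were 0.416 CPM for the BLA, 0.241 for the Nacc, 0.193 for the ACC, 0.104 for the mPFC and 0.0881 for the vHipp. The log2 difference was 5.69 (SE 0.085) in the DMT. It was called lower in the vHipp, mPFC and ACC, each against a mean of other regions that included the DMT. In every region outside the DMT, the Nacc and BLA too, at least 1 library had none. Without the BLA libraries that held choroid plexus markers, the ACC value moved from -1.02 to -0.70 and lost its call.

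Epha8 was high in the DMT, at 33.8 to 67.7 CPM (median 50.4), and in the Nacc, at 18.7 to 53.8 CPM (39.6). Every other region stayed at or under 17.8 CPM. On the log2 scale its difference was 2.33 (SE 0.045) in the DMT, 1.82 (SE 0.046) in the Nacc and -1.94 (SE 0.064) in the vHipp. Epha2, Epha5 and Epha10 were not called. The order of Epha5 began with the mPFC (median 187 CPM) and ended with the DMT (mean 102), and every step differed.

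EphB receptors bind the transmembrane ephrins, and 2 of 5 were called. Ephb6, which lacks kinase activity, was a cortical gene: 167 to 315 CPM in the ACC (median 284) and 95.1 to 278 in the mPFC (226), against medians of 41.9 to 75.9 in the other regions. No library outside these cortical regions exceeded 89.6 CPM. It differed on the log2 scale by 1.87 (SE 0.032) in the ACC, 1.43 (SE 0.032) in the mPFC and -1.35 (SE 0.040) in the Nacc. Ephb2 was called lower in the Nacc, at 5.81 to 20.6 CPM (median 9.20; -1.22, SE 0.040). Ephb1, Ephb3 and Ephb4 were not called, although each step in the orders of Ephb1 and Ephb3 differed.

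Of the Robo receptors, 2 of 4 were called. Robo2 was low in the DMT, at 27.2 to 44.5 CPM (median 35), and no library elsewhere was under 85.5 CPM (log2 difference -1.88, SE 0.039). Its other 5 regions had medians of 122 to 145 CPM, and no step between neighbours among them differed. Robo3, known from the crossing of the midline, was highest in the vHipp, at 22.1 to 49.4 CPM (median 37.5; 1.82, SE 0.111), and low in the BLA (2.68; -2.27, SE 0.157) and the Nacc (4.40; -1.87, SE 0.151). Its DMT libraries ran from 0.199 to 93.8 CPM (median 17.6), so that some libraries lay far under and others far above those of the vHipp. Robo1 and the endothelial Robo4 were not called, and Robo4 had the narrowest range of all members, 0.34 on the log2 scale.

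Unc5 receptors mediate repulsion by netrins, and all 4 were called. Unc5a ran from 153 to 212 CPM in the vHipp (median 186). It ran from 91.1 to 152 CPM in the BLA, from 96.4 to 121 in the ACC, from 86.8 to 129 in the mPFC and from 60.7 to 138 in the Nacc, with means of 112, 108, 108 and 89.1. The DMT held 15.9 to 31.3 CPM (19.9). The vHipp was above and the DMT below every other library, and neither step from the BLA through the ACC to the mPFC differed. The log2 difference was 1.32 (SE 0.027) in the vHipp and -2.50 (SE 0.036) in the DMT.

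The other Unc5 receptors each had another pattern. Unc5b was higher in the DMT (median 53.8 CPM; log2 difference 1.16, SE 0.048) and was highest there in all 41 mice. Unc5c was higher in the vHipp (102 CPM; 1.09, SE 0.030), with the DMT second at 86.0 CPM. Unc5d was higher in the BLA (80.8 CPM; 1.23, SE 0.039) and lower in the DMT (21.8 CPM; -1.07, SE 0.047).

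Ligands and receptors known to bind each other were then set side by side as 32 pairs. Only 4 pairs had the same highest region: Slit1 and Robo2, Slit3 and Robo2, and Efna3 and Epha4 in the vHipp, and Efnb2 and Ephb1 in the Nacc. Over the 6 regional means, Pearson's r of log2 levels was above 0 in 12 pairs and below 0 in 20 (median -0.22). It ran from -0.86 for Sema6a and Plxna2 to 0.92 for Efnb2 and Ephb1. Slit2 and Robo2, both lowest in the DMT, had an r of 0.87. Efna5 and its receptors Epha3, Epha4, Epha5 and Epha7 had an r of -0.81, -0.74, -0.22 and -0.75, while Spearman's rho for the same pairs was -0.23, 0.09, -0.20 and -0.26. These values describe 6 points that share mice and kit, and carry no test.

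Other guidance genes, from lists of 19 further receptors and ligands and 27 intracellular partners, had most of their calls in the DMT, which also had the most calls over all genes (8.91% higher and 8.66% lower). Of the 19, 2 were higher there and 6 lower. Ntng1, a netrin G ligand known from thalamic axons, was higher in the DMT by 4.06 (SE 0.040) on the log2 scale, at a median of 550 CPM. It was called lower in the mPFC, ACC and Nacc, with medians of 22.8 to 26.6 CPM, and was not called in the BLA or the vHipp. L1cam, a cell adhesion molecule of axons, was higher in the DMT by 1.32 (SE 0.019). Of the 27 partners, 2 were higher and 5 lower in the DMT, among them Ngef, an exchange factor that acts under EphA receptors (-3.18, SE 0.052). Ngef was higher in the Nacc (1.46, SE 0.037) and the ACC (1.15, SE 0.037). In the vHipp 2 of the 19 were higher (Draxin and Ntng2) and 1 lower, while 0 of the 27 partners were higher and 2 lower (5.33% and 4.92% of all genes).

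The 2 sets of mice gave nearly the same members when each was tested alone. In the vHipp 15 members were called higher without interaction and 16 after it, and 15 were shared. In the DMT 10 and 13 were called lower and 10 were shared. The sets share neither mice nor libraries, but each was part of the pooled test.

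Within each region, conditions were compared to ask whether adversity or SAFit2 moved the members. In mice without interaction, 0 of 1221 member tests over 18 comparisons had an adjusted p under 0.05 in edgeR (0.000702% of all gene tests did), and DESeq2 also gave 0. At an unadjusted p under 0.05 there were 57, or 4.67% of the member tests and 4.25% of all gene tests, and the smallest adjusted p was 0.22. Of the 57, 13 came from ELA_SAFit2 against ELA_Veh in the Nacc (19.1% of members, 11.5% of genes), where Plxna1 held that smallest adjusted p (-0.39 on the log2 scale). Without the Nacc libraries that resembled another mouse there were 9 (13.2% of members, 6.09% of genes), with a smallest adjusted p of 0.81. After social interaction there were again 0 of 1221 (0.000351% of gene tests), with 36 at an unadjusted p under 0.05 (2.95%, and 4.5% of gene tests) and 0 by DESeq2. The effects of adversity and of SAFit2 differed between the sets in 0 of 814 member tests (0.0116% of gene tests), with 36 at an unadjusted p under 0.05 (4.42%, and 4.38% of gene tests) and 0 by DESeq2.

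Counts of the 6 regions were also summed per mouse, so that each mouse gave 1 value. None of the 68 members was called for a condition (0.00192% of gene tests in the 3 comparisons), by edgeR or by DESeq2. In edgeR 3, 1 and 1 had an unadjusted p under 0.05, for adversity, for SAFit2 and for ELA_SAFit2 against Ctrl_Veh. Of all genes, 6.69%, 5.6% and 4.26% were under that p. The lowest p for adversity was that of Sema6d, higher by 0.09 (SE 0.034) on the log2 scale in ELA_Veh than in Ctrl_Veh (adjusted p = 0.624). Sema3b had the largest difference for adversity, -0.45 (SE 0.213, adjusted p = 0.726). Its summed level ran from 2.77 to 4.85 CPM in Ctrl_Veh (median 3.82) and from 0.733 to 4.64 CPM in ELA_Veh (2.92). The groups overlapped between 2.77 and 4.64 CPM, and the ELA_Veh range reached below every Ctrl_Veh mouse. The BLA libraries low in choroid plexus markers were 2 of 13 in Ctrl_Veh, 4 of 14 in ELA_Veh and 5 of 14 in ELA_SAFit2, and their part in the Sema3b values was not tested. For SAFit2 against vehicle after adversity, Plxnd1 had the lowest p, with a difference of 0.14 (SE 0.064, adjusted p = 0.827), followed by Robo3 and Plxna1. For ELA_SAFit2 against Ctrl_Veh, the lowest p was again that of Sema6d (0.10, SE 0.034, adjusted p = 0.708), followed by Sema3b (-0.41, SE 0.213, adjusted p = 0.999) and Epha3 (0.07, SE 0.046, adjusted p = 0.999).

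With social interaction, averaged over the 3 conditions, a few members were called higher or lower. In the mPFC 4 members rose, in the ACC 1 fell and in the vHipp 1 rose. All of these differences were small, below 0.25 in size on the log2 scale. For all genes the share called was 7.4% (mPFC), 4.15% (ACC), 1.21% (vHipp), 1.49% (BLA), 1.6% (DMT) and 0.0% (Nacc). The 4 of 68 members in the mPFC and the 1 of 68 in the vHipp were thus near the background. The 1 of 68 in the ACC was under it. In the Nacc, 2 libraries of every group resembled another mouse, so the sets and conditions there may be mixed, and the part of this in the Nacc counts of 0 was tested only by leaving these libraries out. Without those libraries the Nacc still had 0 members called for social interaction, with 2 at an unadjusted p under 0.05, while 4 genes were called and the genes at an unadjusted p under 0.05 went from 2.46% to 7.14%.

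Plxna4 rose most clearly. In the mPFC it ran from 139 to 185 CPM without interaction (median 166, 21 mice) and from 167 to 207 after it (188, 20 mice). The upper part of the first set overlapped with the lower part of the second. The log2 difference was 0.18 (SE 0.026, edgeR adjusted p = 2.3e-05), and the adjusted p lay between 2.79e-08 and 0.000416 over 6 alternatives. In the other regions its difference was between -0.03 and 0.12.

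Plxna2, which shares class 6 semaphorin ligands with Plxna4, rose by 0.17 (SE 0.040, adjusted p = 0.00444), from 198 to 275 CPM (median 245) to 220 to 321 (276). Unc5c rose by 0.17 (SE 0.041, adjusted p = 0.00808), from 30.9 to 48.0 CPM (38.9) to 36.8 to 49.7 (42.8). Epha10, a kinase-inactive Eph receptor, rose by 0.22 (SE 0.058, adjusted p = 0.0149), from 37.1 to 59.5 CPM (49.5) to 38.3 to 68.1 (57.6). The sets overlapped for each gene. Without the libraries that held another region's markers, Epha10 (0.21, adjusted p = 0.0635) and Unc5c (0.14, adjusted p = 0.104) were no longer called, while Plxna4 and Plxna2 were, and the scarce ephrin Efna4 was called lower (-0.96, adjusted p = 0.0328).

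**Figure D4:**
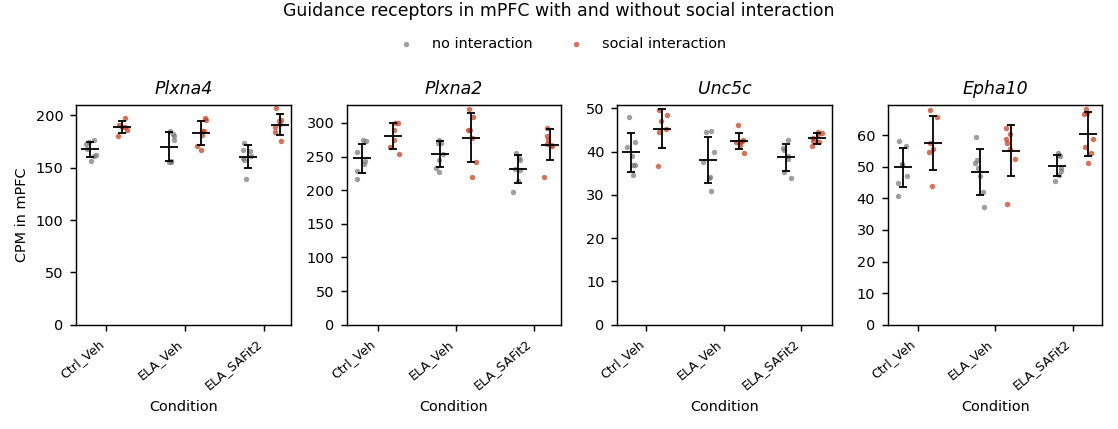
Level in CPM of Plxna4, Plxna2, Unc5c and Epha10 in each mPFC library, by condition and set, with the mean and SD of each group of 6 or 7 mice. Levels after social interaction lie above those without it on average, with overlap between the sets.

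Elsewhere 2 members were called. Sema4b, a transmembrane semaphorin, fell in the ACC by 0.13 on the log2 scale (SE 0.031, adjusted p = 0.00941), from 15.6 to 19.8 CPM (median 16.9) without interaction to 13.8 to 18.7 (15.8) after it. Slit1 rose in the vHipp by 0.16 (SE 0.040, adjusted p = 0.0349), from 289 to 403 CPM (356) to 333 to 452 (390). In both cases the sets overlapped. In edgeR the BLA, DMT and Nacc had 0 members called and 12 of 68, 10 of 67 and 3 of 68 at an unadjusted p under 0.05. Of all genes, 14.8%, 12.7% and 2.46% were under that p there. The lowest p was that of Ephb2 in the BLA (-0.19, SE 0.052, adjusted p = 0.0605), of Plxnd1 in the DMT (-0.13, SE 0.043, adjusted p = 0.134) and of Plxna4 in the Nacc (0.10, SE 0.030, adjusted p = 1.0). By DESeq2, Sema6a (adjusted p = 0.0369) and Ephb2 (0.0323) were called lower in the BLA and Sema6a (0.0473) in the ACC, while the DMT and Nacc stayed at 0. Whether a response differed between regions was not tested.

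Summed over regions per mouse, 3 of 68 members were called, a smaller share than over all genes (8.56%). Plxna4 was higher by 0.09 (SE 0.022, adjusted p = 0.0122), from 175 to 205 CPM (median 190) without interaction and 170 to 217 (202) after it. Unc5c was higher by 0.09 (SE 0.029, adjusted p = 0.0417), with 48.2 to 68.7 CPM (58.2) and 58.0 to 69.4 (61.8). Sema6d, a ligand of Plxna1, was lower by 0.09 on the log2 scale (SE 0.028, adjusted p = 0.0402), with 92.9 to 124 CPM without interaction and a lowest mouse of 83.0 CPM after it. The regional values of Sema6d ran from -0.19 in the ACC to 0.06 in the Nacc, and none passed the test in its own region. Of 5 alternatives, Plxna4 was called in 5, Sema6d in 4 (largest adjusted p = 0.0581) and Unc5c in 3 (largest adjusted p = 0.0564). Markers of oligodendrocyte precursors moved too: 1 of 3 was higher after interaction in the mPFC, the ACC and the BLA, where the median of their summed level in the mPFC was 118 CPM without and 133 CPM after it. In the ACC, 1 of 5 astrocyte and 1 of 5 microglia markers were lower. On the summed counts 1 of 3 precursor, 1 of 5 astrocyte and 1 of 5 hippocampal markers were higher and 1 of 5 microglia markers was lower. Their part in these values was not tested.

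**Figure D5:**
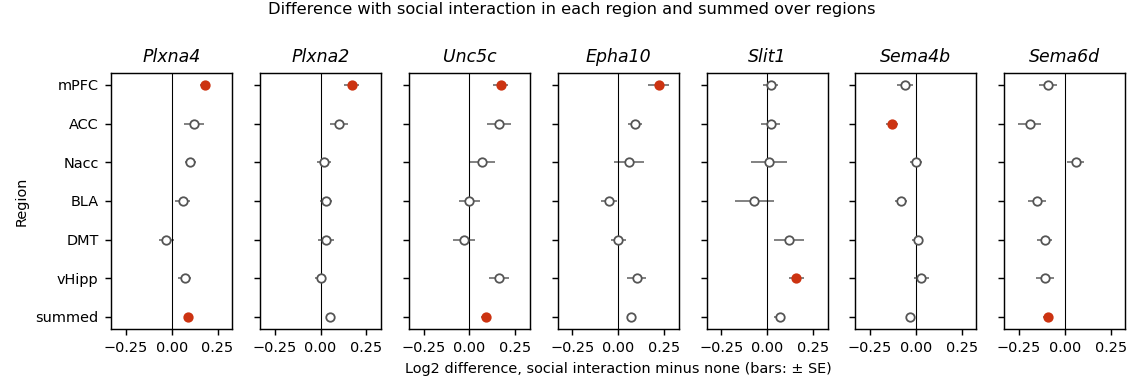
Log2 difference of social interaction from no interaction with its SE, for the 7 members called in a region or in the summed counts, by region and summed per mouse, with filled red points where the adjusted p was under 0.05. Plxna4 reaches 0.18 in the mPFC and 0.09 summed, and Sema6d -0.09 summed.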

How the data were processed

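RNA (RIN over 7) was made into stranded poly-A libraries. For each gene, the authors deposited estimated counts, made with salmon according to the table's own name, and STAR, DESeq2 and GRCm39 are named in the submitters' processing notes. The counts were not scaled to depth or length, 12.12% were not whole, and they were rounded. Gene types and exonic lengths came from GENCODE M21 on GRCm38 (52073 of 56691 identifiers matched, 978 typed through RefSeq symbols and 3640 untyped), so lengths are approximate for the build of the counts, and no coordinates of that build are given. Column names were matched to samples through the library names in the labels.

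Protein-coding genes whose counts summed to at least 100 and were above 0 in 6 or more libraries entered the tests with edgeR 4.0.16 in R 4.3.3 (TMM, quasi-likelihood test, Benjamini-Hochberg adjustment over all genes). Regions were compared in 1 fit of all libraries with 36 group means. Conditions and sets were compared in 1 fit per region with 6 group means, and on counts summed per mouse. DESeq2 1.42.0 was an alternative, beside other size factors, no filter on low counts, genes of every type, the mouse as a block, and sets of libraries left out. All other steps ran in Python 3.11.15 with pandas 2.3.3, SciPy 1.17.1, NumPy 2.4.6 and, for figures, Matplotlib 3.10.9. On simulated data, the social interaction step (15812 genes) recovered 94% of 200 genes changed by 0.5 on the log2 scale, with 13 false calls. The region step (17381 genes) recovered 100% of 200 genes changed by 1.5, with 0 false calls. Changes were placed in genes above a limit on mean count, with a fixed spread. In the social interaction step they were larger than the differences reported as called for members. Recovery of differences that small, or of differences between conditions, was not tested.

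The mouse numbers in the labels pair the regions of a mouse. Over 60 genes that differ between mice, the 205 libraries outside the Nacc had correlations of at least 0.785 with the other regions of their own mouse (median 0.98). The 12 Nacc libraries that resembled another mouse had at most 0.388 and were kept under their labels.

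The members and lists were chosen with earlier results of these data known. Genes named are, in each region, the 3 called members with the largest positive and the 2 with the largest negative difference; in each family the widest and narrowest range over regions; every member called between sets; and the 3 members with the smallest p in each comparison of sets or of summed counts. The others are named to account for every member. Ligand and receptor pairs are textbook pairs. Within a region and on summed counts, p-values describe the spread between mice. The fit that compared regions had no term for the mouse, so its p-values treat the libraries of a mouse as independent. With the mouse as a block, results are given only for regions against the mean of the others, not for pairs of regions. The counts at these totals limit the precision of members under 1 CPM.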

Additional observations from a re-analysis of the deposited data

Results flagged for a closer look

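For members called between the sets, 54 groups of 6 or 7 mice were checked for a mouse that stands apart from the others, and 3 had one, about as many as chance gives (1 in 20). In the mPFC, Epha10 was at 38.3 CPM in 1 ELA_Veh mouse after social interaction, and the other mice of that group lay between 52.4 and 62.3. Plxna2 was at 220 CPM in the mPFC of 1 ELA_SAFit2 mouse after social interaction, with the others between 266 and 293. On counts summed per mouse, Plxna4 was at 216 CPM in 1 ELA_Veh mouse after social interaction, with the others between 195 and 204.

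The antisense RNAs of the Plxna4 locus are not protein-coding and entered no comparison. Their summed counts over all libraries were 290 for Plxna4os1 and 113 for Plxna4os2.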

How the results depend on the processing

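Of 937 values recomputed under another setting, 766 were differences of named members and 171 were counts of calls, and 0 reversed. Of the differences, 746 kept their direction and side of the threshold and 20 kept only the direction. Of the counts, 167 stayed within 1.5 times the reported count each belongs to. Social interaction calls were counted over all regions together, 6 in edgeR and 9 with DESeq2, which added 2 in the BLA and 1 in the ACC. With the mouse number as replicate block the regions held 66 calls in place of 65, and the pairing moved no count of a region and direction by more than 1.5 times. The ACC had 1 member called lower, in place of 2, in mice without social interaction alone, and also 1 without the BLA libraries that held choroid plexus markers. On counts summed per mouse, DESeq2 gave 5 calls and genes of every type gave 1, in place of 3. With DESeq2, Epha10 (adjusted p = 0.0422) and Sema3e (adjusted p = 0.0426) were added there. Epha10 was also added in edgeR when the Nacc was left out of the sums (adjusted p = 0.0445, and 0.0602 with it). With genes of every type, Unc5c (adjusted p = 0.0564) and Sema6d (adjusted p = 0.0581) were lost, where more genes entered the adjustment. Without the filter on low counts Unc5c (adjusted p = 0.0532) was lost. The settings without libraries that held another region's markers or choroid plexus markers were chosen after seeing the data. Depth limits Efna4, Epha1 and Ntn5, which were near 0 in some regions.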
